A study of Bos taurus with 25 samples.

Results

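The genes described here carry out or control the oxidation of fatty acids and the handling of ketone bodies in the liver: CPT1A, CPT2, ACADM, ACADVL, BDH1, PPARA and FGF21. They were chosen by name, from the symbol paired with the accession that the array gives each probe. No cutoff on their values was used, but earlier results of these data were known when they were chosen. Of these 7 genes, 5 were found by name, with 11 of the 43653 different probes on the array: 4 for ACADVL, 3 for ACADM, 2 for CPT2, 1 for BDH1 and 1 for PPARA. No probe was paired with CPT1A or FGF21, and their levels were not analysed here. All 11 probes were kept in every test.

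Liver and mammary biopsies of lactating, multiparous Holstein cows were hybridized to 1-colour bovine arrays, with 12 liver and 13 mammary arrays of 13 cows, and 12 cows gave both tissues. Every array held the RNA of a single cow, sampled 64 ± 3 days after calving. All cows received weekly intramuscular injections of 5 mL; the milk yield blocks in which the cows had been assigned are not given in the labels. Control cows received saline (3 arrays of each tissue), cows supplemented with vitamin B9 received 320 mg a week (3 arrays of each tissue), those supplemented with B12 received 10 mg (4 arrays of each tissue), and the B9 + B12 group received both vitamins (2 liver and 3 mammary arrays). No cow was in more than 1 group, and in biopsies of whole tissue fewer cells of a type and less RNA per cell cannot be told apart.

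In the oxidation of long-chain fatty acids, CPT1A couples the acyl chain to carnitine at the outer mitochondrial membrane, and CPT2 returns it to coenzyme A inside. ACADVL and ACADM then catalyze the first dehydrogenation of each round of β-oxidation, ACADVL for very long and long chains and ACADM for medium chains. When acetyl-CoA accumulates, the liver condenses it to ketone bodies, and BDH1 interconverts acetoacetate and β-hydroxybutyrate. PPARA is the nuclear receptor that fatty acids activate and that induces many of these enzymes, and FGF21 is a hormone secreted by the liver in energy deficit. In early lactation the dairy cow mobilizes body fat, and the fatty acids that reach the liver are oxidized, made into ketone bodies or stored.

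The labelled tissues carried their markers. The 7 hepatocyte markers found by name were all well above background on every liver array, with a summed level between 20.44 and 20.61 on the log2 scale, against 12.54 to 15.17 in the mammary gland. The 7 markers of the mammary epithelium had a summed level between 21.00 and 21.10 in the gland and between 14.02 and 15.26 in the liver. The median signal over background ranged from 2.30 to 10.5 on the liver arrays and from 2.92 to 5.06 on the mammary arrays. The liver arrays of cows 43 (control), 37 (B12) and 32 (B9 + B12) were on 1 slide, scanned on a later day than all other arrays, and had the 3 lowest signals over background in the liver (3.58, 3.22 and 2.30).

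The oxidation enzymes were expressed at a higher level in the liver than in the mammary gland, and BDH1 was the reverse. Levels in this comparison are log2 fluorescence intensities normalized over both tissues, and a probe was called when the limma adjusted p was at most 0.05 and the change at least 2-fold. By this rule 18.7% of all probes were called, 8.80% higher in the liver and 9.89% higher in the gland. Of the 11 probes, 9 were called higher in the liver (all those of CPT2, ACADVL and ACADM), that of BDH1 was called higher in the gland, and that of PPARA was not called.

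CPT2, the inner carnitine palmitoyltransferase, had levels of 12.64, 12.83 and 13.12 (lowest, median and highest) on the 12 liver arrays and of 9.75, 10.03 and 10.27 on the 13 mammary arrays, so that the tissues did not overlap. Its brighter probe was 7.07-fold higher in the liver (95% confidence interval 6.32 to 7.90; limma adjusted p = 1.88e-17). The dimmer probe of CPT2 gave 2.62-fold (2.23 to 3.07), and the 2 probes thus differed in size but not in direction. That dimmer probe read only 6.59 to 7.40 in the gland, and the background correction narrows the differences of dim probes.

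ACADVL, the dehydrogenase of very long and long chains, had levels of 14.98, 15.45 and 15.97 in the liver and of 12.70, 13.03 and 13.28 in the gland. Its brightest probe was 5.35-fold higher in the liver (4.58 to 6.27; limma adjusted p = 7.67e-14), and the other 3 probes gave 5.60, 6.05 and 6.12-fold. ACADM had levels of 12.89, 14.30 and 14.39 in the liver and of 10.88, 11.24 and 11.47 in the gland. It was 6.65-fold higher in the liver by its brightest probe (5.51 to 8.02; limma adjusted p = 2.00e-13), and 7.62 and 8.27-fold by the others. The lowest liver value of ACADM belonged to cow 32. The 9 probes of these 3 enzymes each ranked every one of the 12 cows with both tissues in the same order, higher in the liver.

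PPARA, the fatty acid receptor, had a small difference. Its levels were 7.14, 7.29 and 7.60 in the liver and 6.40, 6.52 and 6.72 in the gland, which did not overlap, and the liver was 1.70-fold higher (1.57 to 1.84; limma adjusted p = 1.28e-10). This fell short of 2-fold. The fold of PPARA moved with the background correction: it was 2.55-fold with a normexp offset of 0 and past the 2-fold limit in 4 alternatives, whereas each array scaled to its 75th percentile, without quantiles, gave 1.11-fold (limma adjusted p = 0.106). That scaling moved the median over all probes to −0.80 on the log2 scale, against −0.03 with quantiles, so that PPARA lay above the median probe under both.

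BDH1, which interconverts the 2 ketone bodies, was not well above background on any of the 12 liver arrays and was well above it on all 13 mammary arrays. Its liver values were 5.92, 6.01 and 6.20 and its mammary values 10.93, 11.71 and 12.14. The mammary level was at least 47.6-fold higher, from the mean of the gland against the lowest signal well above background on each liver array (or the signal of the probe itself where that was higher); the measured means were 11.61 and 6.02, and the limma adjusted p was 8.76e-20. Within cows, BDH1 was higher in the gland in 12 of 12. Exact two-sided sign-flip permutation tests over the 12 cows gave p = 0.000488 for each of the 11 probes, PPARA included, which is the smallest value that 12 cows allow.

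**Figure D1:**
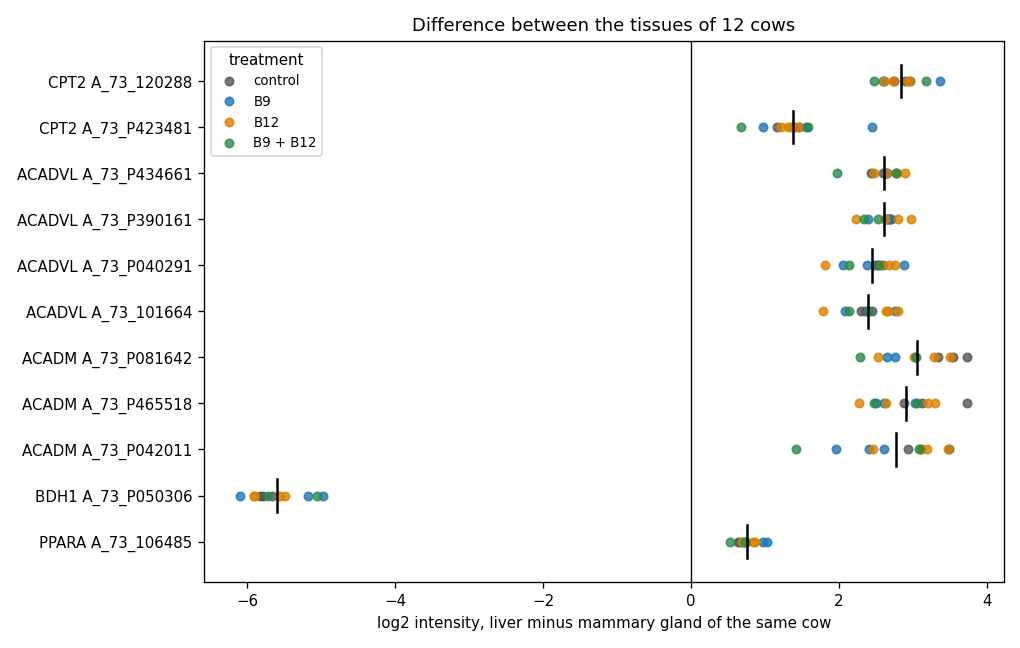
Difference in log2 intensity between the liver and the mammary gland of the same cow (horizontal axis) for each of the 11 probes (rows), 1 point per cow and colored by treatment, with the mean as a vertical line. The 12 cows lie to the right of 0 for all probes of CPT2, ACADVL, ACADM and PPARA and to the left for BDH1, whose liver values are at background, so that its points show only a bound.

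The genes around them in the pathway were compared by 8 lists, of which 59 of 69 genes were found by name. Over all lists, 38 genes were called higher in the liver and 8 higher in the mammary gland, and the median difference was 1.79 on the log2 scale, liver minus gland, against −0.03 over all probes. The enzymes of mitochondrial β-oxidation were nearly all on the side of the liver: 13 of 16 were called higher and 0 lower, with a median of 2.55. The largest were ECI2, an enoyl-CoA isomerase (4.13), and ACADS, the short-chain acyl-CoA dehydrogenase (4.06). ACADSB, ACAD11 and ETFB were not called, and ACADSB and ACAD11 had the opposite sign (−0.86, limma adjusted p = 0.000928, and −0.91, limma adjusted p = 0.000346), short of 2-fold. Of 10 peroxisomal genes, 8 were called higher in the liver, led by ACOX2, the branched-chain acyl-CoA oxidase (4.45), and HSD17B4, the peroxisomal bifunctional protein (3.77).

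The steps before oxidation differed by member. Among the genes of uptake and activation, 5 of 7 were called higher in the liver, with FABP1, the liver fatty acid binding protein, at 10.74 on the log2 scale and SLC27A2, a very long-chain acyl-CoA synthetase, at least 76.9-fold higher. FABP1 was well above background on 5 of the 13 mammary arrays and SLC27A2 on 0. CD36, a fatty acid translocase, and ACSL1, a long-chain acyl-CoA synthetase, were called higher in the gland, by 98.9-fold and 2.19-fold. In the carnitine shuttle, CROT, the peroxisomal carnitine octanoyltransferase, and SLC25A20, the carnitine-acylcarnitine carrier, were higher in the liver by 4.64 and 2.66 on the log2 scale, and SLC22A5, the carnitine importer of the plasma membrane, was 14.8-fold higher in the gland. CPT1B, the muscle form of CPT1, was not called.

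The 5 other ketone body genes gave 3 called higher in the liver and 1 higher in the gland. ACAT1, the mitochondrial thiolase, was 6.54-fold higher in the liver. OXCT1, which activates acetoacetate for use outside the liver, was 10.9-fold higher in the gland, the direction that BDH1 also had. BDH2, a cytosolic relative, differed by 0.49 (0.14 to 0.83) and was not called.

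Among the partners and targets of PPARA, 5 of 10 were called higher in the liver and 1 in the gland. CYP4A11, an ω-hydroxylase, was 408-fold and CREB3L3, a hepatic transcription factor, 63.6-fold higher in the liver, with CREB3L3 well above background on 6 of 13 mammary arrays. The array names CYP4A11 and CYP4A22 separately, and probes of such a family can share signal. PLIN2, the coat protein of lipid droplets, was 36.1-fold higher in the gland. The coactivator PPARGC1A was 1.69-fold higher in the liver and was not called. Of the genes of malonyl-CoA and AMPK, ACACA, the acetyl-CoA carboxylase of fatty acid synthesis, and PRKAA1 were called higher in the gland (6.27-fold and 2.58-fold), and MLYCD, malonyl-CoA decarboxylase, was 2.98-fold higher in the liver. Of the receptors through which FGF hormones act, FGFR4 was 7.12-fold higher in the liver and FGFR1 6.07-fold higher in the gland. No probe was paired with KLB.

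**Figure D2:**
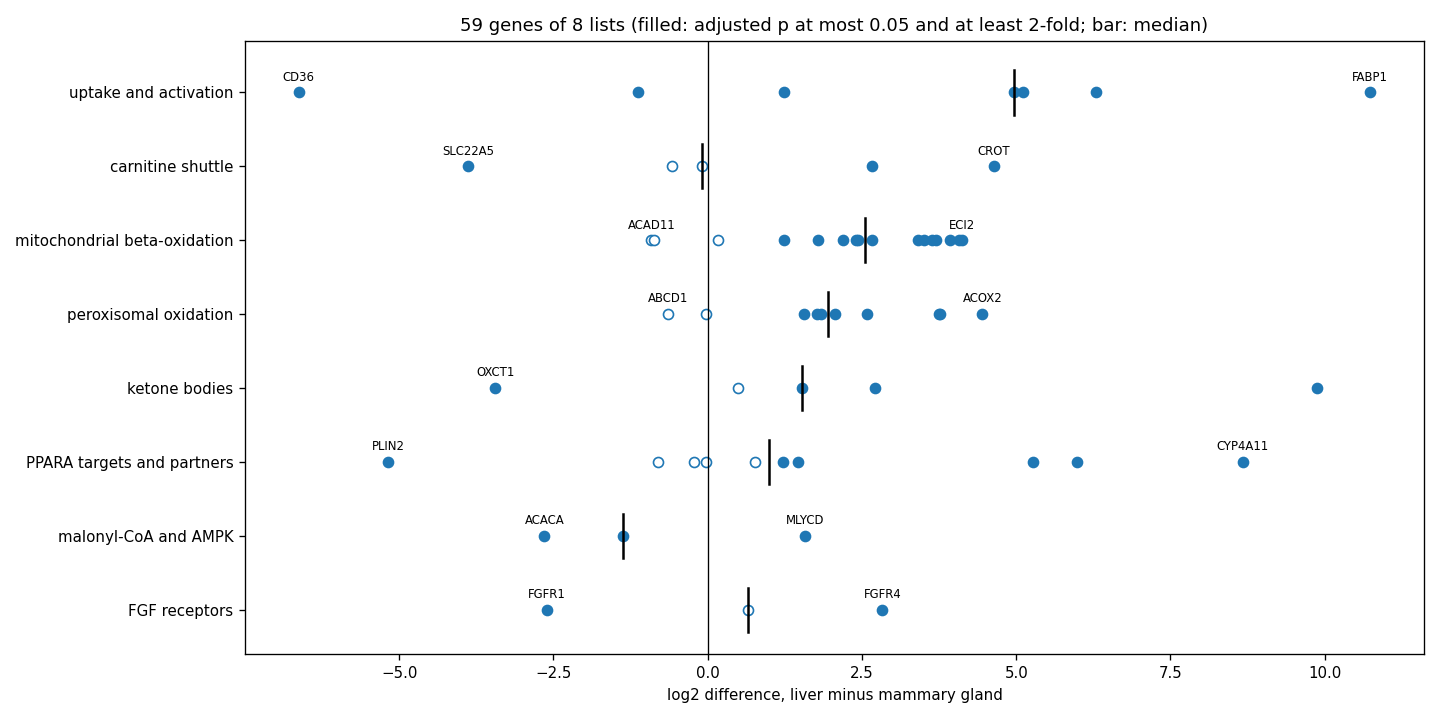
Log2 difference between liver and mammary gland (horizontal axis, positive when the liver is higher) for the 59 genes of 8 lists (rows), 1 point per gene, filled when called, with the median of each list as a vertical line. Mitochondrial β-oxidation lies to the right with a median of 2.55, whereas OXCT1 lies to the left of 0, at −3.44.

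The remaining comparisons asked whether the vitamins changed these genes within a tissue, on log2 values normalized within that tissue. No member was called in any of them. In the liver, none of the probes (0%) passed after B9 or after the combination, and 0.00229% did after B12, which is 1 probe, of IFI6, an interferon response gene named here after its value was seen. In the mammary gland 0% were called in each comparison. Without adjustment, limma gave p under 0.05 for 1 of the 11 probes in the liver of the B9 group, 0 in the B12 group and 1 in the B9 + B12 group, and for 0 in each mammary comparison. Over all 43653 probes these counts were 1545, 926 and 2496 in the liver and 1112, 997 and 852 in the gland. Cyber-T, the test of the study's methods, called 0 of the 11 probes in all 6 comparisons (2, 0 and 2 at an unadjusted p under 0.05 in the liver and 0 in the gland), while over all probes it called 0.0115% (B9), 0.0985% (B12) and 0.0642% (B9 + B12) in the liver and 0.0206%, 0.0275% and 0.0137% in the gland. Of the 59 other pathway genes, 0 were called in any treatment comparison by limma, with 4, 0 and 3 at an unadjusted p under 0.05 in the liver (B9, B12 and B9 + B12) and 0, 0 and 1 in the gland.

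ACADM had the largest differences in the liver. Its brightest probe read 15.36, 15.28 and 15.37 in the control cows 42, 43 and 51, and 14.70, 15.02 and 14.38 in the B9 cows 39, 41 and 57. Every B9 cow was thus below every control cow. In the B12 group it read 14.78, 15.40, 15.33 and 15.40 (cows 36, 37, 40 and 52), where 3 cows were in or just above the range of the controls and cow 36 was below it. In the B9 + B12 group it read 13.87 in cow 32 and 15.33 in cow 38, the lowest value of all and a value within the controls.

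The control mean of ACADM was 15.34 ± 0.05 (SD, n = 3), against 14.70 ± 0.32 with B9 (n = 3), 15.23 ± 0.30 with B12 (n = 4) and 14.60 ± 1.04 with B9 + B12 (n = 2). Ordered by level (control, B12, B9 and then B9 + B12), each neighbouring pair of groups overlapped, whereas the control and B9 groups did not. The log2 difference of B9 from the control was −0.64 (95% confidence interval −1.37 to 0.10; limma adjusted p = 0.906). With B12 the difference was −0.11 (−0.80 to 0.58; limma adjusted p = 1.00), and with B9 + B12 it was −0.74 (−1.56 to 0.08; limma adjusted p = 0.687). The exact permutation test of B9 against control gave p = 0.1, the smallest that 3 against 3 cows allow.

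The other ACADM probes did not all follow. The probe A_73_P081642 read 11.67, 11.29 and 11.68 in the controls (cows 42, 43 and 51), 10.92, 11.23 and 10.62 with B9 (cows 39, 41 and 57), and 10.45 and 11.18 with B9 + B12 (cows 32 and 38). Both groups that received B9 were below all controls, by −0.62 (−1.22 to −0.03) and −0.73 (−1.40 to −0.07), with limma adjusted p = 0.906 and 0.687. The probe A_73_P465518 read 12.04, 11.88 and 12.70 in the controls and 11.53, 12.15 and 11.72 with B9, which overlapped, and its differences were −0.41 (−1.06 to 0.24) with B9 and −0.23 (−0.96 to 0.49) with B9 + B12. In the B12 group the difference was −0.38 (−0.94 to 0.17) at A_73_P081642 and −0.37 (−0.98 to 0.23) at A_73_P465518, with values that overlapped the controls. Over the 12 liver arrays the brightest probe correlated with A_73_P081642 at r = 0.89 and with A_73_P465518 at r = 0.43.

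Averaged over B12, groups with B9 differed from those without by −0.63 at the brightest ACADM probe (−1.17 to −0.10; limma adjusted p = 0.491). The same contrast was −0.49 at A_73_P081642 (−0.92 to −0.05; limma adjusted p = 0.491) and −0.13 at A_73_P465518 (−0.61 to 0.34; limma adjusted p = 0.798). Of the 11 probes, 2 of ACADM had an unadjusted p under 0.05 here. Over all probes, 4115 had an unadjusted p under 0.05 in this comparison and 0% were called. The contrast of groups with and without B12 gave −0.11 (−0.64 to 0.43) and the interaction of B9 with B12 gave 0.01 (−1.06 to 1.08) for ACADM, with 0% of probes called in each. In the gland, the contrast of groups with and without B9 gave 0.13 for ACADM (−0.08 to 0.34), and 0% of probes were called there in the contrasts of B9, of B12 and of their interaction.

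Cow 32 decided the value for B9 + B12. With either liver array left out, and on the first scan day, that group is 1 cow, whose spread is assumed to be that of the other groups. Without its liver array the difference of ACADM from the control was −0.00 (−0.63 to 0.62; limma adjusted p = 1.00), and without that of cow 38 it was −1.47 (limma adjusted p = 0.0656). The contrast of groups with and without B9 became −0.27 without cow 32 (limma adjusted p = 0.991), and without cow 38 its interval was −1.38 to −0.62 (limma adjusted p = 0.0770). The array of cow 32 had the lowest signal over background of the liver and was on the slide scanned later. The other arrays of that slide, of cows 43 and 37, read 15.28 and 15.40 for ACADM. On the 9 liver arrays of the first scan day alone, the difference with B9 was −0.67 (−1.24 to −0.09; limma adjusted p = 0.951) and with B9 + B12 it was −0.03. Marker lists of other cells also moved in these arrays, and their part, that of scan day and that of signal in the ACADM values were not tested. The median log2 difference from the control of the mammary epithelium markers was 1.68 in the B12 group, 0.82 in the B9 group and 0.74 in the group given both. Single markers of that list ranged from −0.64 to 1.10 in the B9 group, and the summed level was lower there (14.02 to 14.67) and in the B9 + B12 group (14.22 to 14.44) than in the controls (14.81 to 15.12). Cow 32 had the highest summed macrophage markers of the 12 liver arrays, 14.00, beside 13.29 in cow 38 and 13.21 to 13.36 in the controls, and the highest endothelial sum, 10.16, beside 9.12 to 9.43 in the controls. With B9 + B12 the lymphocyte markers differed by 0.72 and the endothelial markers by 0.66, against 0.10 and 0.27 with B9. The medians of the adipocyte, muscle, macrophage, blood and fibroblast lists lay between −0.19 and 0.22 in all 3 treatments. Around these medians, single fibroblast markers differed by −0.17 to 1.17 and single macrophage markers by −0.15 to 0.66 with B9 + B12. The summed hepatocyte markers of the B9 + B12 arrays were 20.51 and 20.61, beside 20.50 to 20.55 in the controls, but the single markers of that list differed from the control by −0.64 to 1.04 with B9 + B12, against −0.18 to 0.06 with B9.

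**Figure D3:**
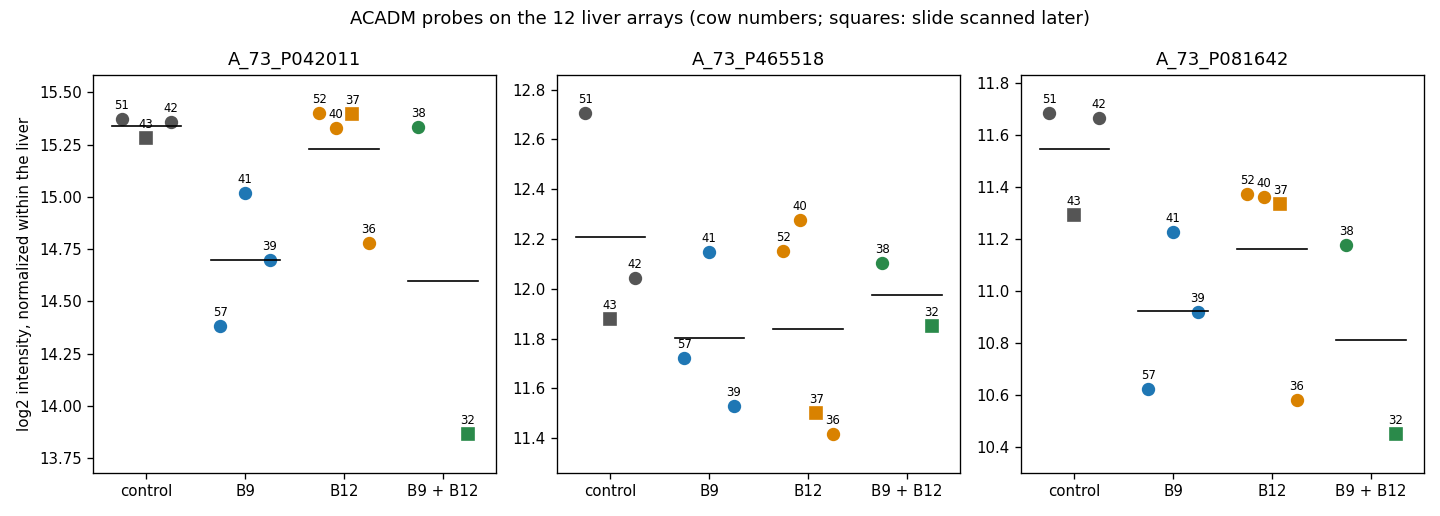
Log2 intensity of the 3 ACADM probes on the 12 liver arrays (vertical axis) by treatment, with cow numbers, group means as lines and squares for the slide scanned later. At the probes A_73_P042011 and A_73_P081642 the B9 cows 39, 41 and 57 lie below all 3 controls, and cow 32 of the B9 + B12 group is lowest.

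For CPT2 in the liver, the controls 42, 43 and 51 read 14.13, 13.79 and 13.64, and the B9 cows 39, 41 and 57 read 13.80, 13.60 and 14.13. The B12 cows 36, 37, 40 and 52 read 13.80, 13.84, 13.78 and 13.97, and cows 32 and 38 of the B9 + B12 group 13.64 and 14.04. The groups overlapped, and cow 41 was the only treated cow outside the range of the controls. The 3 differences from the control lay between −0.02 and −0.01, with 95% confidence intervals from −0.43 at the lowest to 0.40 at the highest. The other CPT2 probe, A_73_P423481, gave 0.41 with B9 (−0.23 to 1.05), 0.08 with B12 (−0.52 to 0.68) and 0.22 with B9 + B12 (−0.49 to 0.93). Its B9 cows 39, 41 and 57 read 8.46, 8.68 and 9.67, against 8.54, 8.27 and 8.77 in the controls 42, 43 and 51, so that cow 57 was the only B9 cow above all controls.

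ACADVL read 15.97, 16.32 and 16.27 in the liver of control cows 42, 43 and 51, and 16.12, 16.23 and 16.71 in that of B9 cows 39, 41 and 57. Its values were 16.58, 16.44, 16.45 and 15.92 with B12 (cows 36, 37, 40 and 52), and 16.45 and 16.21 with B9 + B12 (cows 32 and 38). The groups overlapped, and the differences were 0.17 (−0.28 to 0.61), 0.16 (−0.25 to 0.58) and 0.14 (−0.35 to 0.64). The other 3 ACADVL probes gave differences from −0.06 to 0.32, the highest at A_73_P434661 with B9 (−0.12 to 0.75).

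PPARA read 7.49, 7.50 and 7.86 in the liver of control cows 42, 43 and 51 and 8.04, 7.56 and 7.86 in that of B9 cows 39, 41 and 57, groups that overlapped. Its differences were 0.20 with B9 (−0.11 to 0.51), 0.08 with B12 (−0.21 to 0.37) and 0.08 with B9 + B12 (−0.26 to 0.42). For BDH1, below the limit on all liver arrays, no treatment difference is read there. At the brightest probes, the liver intervals of CPT2, ACADVL and PPARA lay within a 2-fold change either way in all 3 treatments, as did that of ACADM with B12. Those of ACADM with B9 and with B9 + B12 reached past it, and each of these intervals included 0.

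In the mammary gland, all 15 intervals at the brightest probes lay within a 2-fold change and included 0. BDH1 had the widest spread. It read 11.00, 10.87 and 10.95 in the controls 42, 43 and 51, 11.30, 10.19 and 10.46 with B9 (cows 39, 41 and 57), 10.73, 10.87, 11.13 and 11.03 with B12 (cows 36, 37, 40 and 52), and 10.92, 11.10 and 10.33 with B9 + B12 (cows 31, 32 and 38). Each treated group, B12 alone included, had a cow below all controls and a cow above all controls. The differences were −0.29 (−0.87 to 0.29), −0.00 (−0.54 to 0.54) and −0.16 (−0.73 to 0.42).

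ACADM in the gland read 10.66, 10.43 and 10.15 in the controls and 10.52, 10.63 and 10.64 with B9, and the difference was 0.18 (−0.13 to 0.49). It had the opposite sign of the liver. For ACADM, the effect of B9 in the liver minus that in the gland was −0.84 (−1.61 to −0.08; limma adjusted p = 1.00), with 0% of probes called, and that of B9 + B12 was −0.80 (−1.62 to 0.01; limma adjusted p = 0.835), also with 0% called. For B12 it was −0.11 (−0.83 to 0.61), with 0% called. Leaving out the liver array of cow 38, the B9 + B12 value, then of cow 32 alone with the spread of the other groups, was −1.52 and was called (limma adjusted p = 0.0435), and leaving out that of cow 32 it was −0.08 (limma adjusted p = 1.00). At their brightest probes, CPT2, ACADVL and PPARA in the gland differed from the control by −0.04 to 0.14 in all 3 treatments, and the other probes of CPT2 and ACADVL by −0.03 to 0.24.

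**Figure D4:**
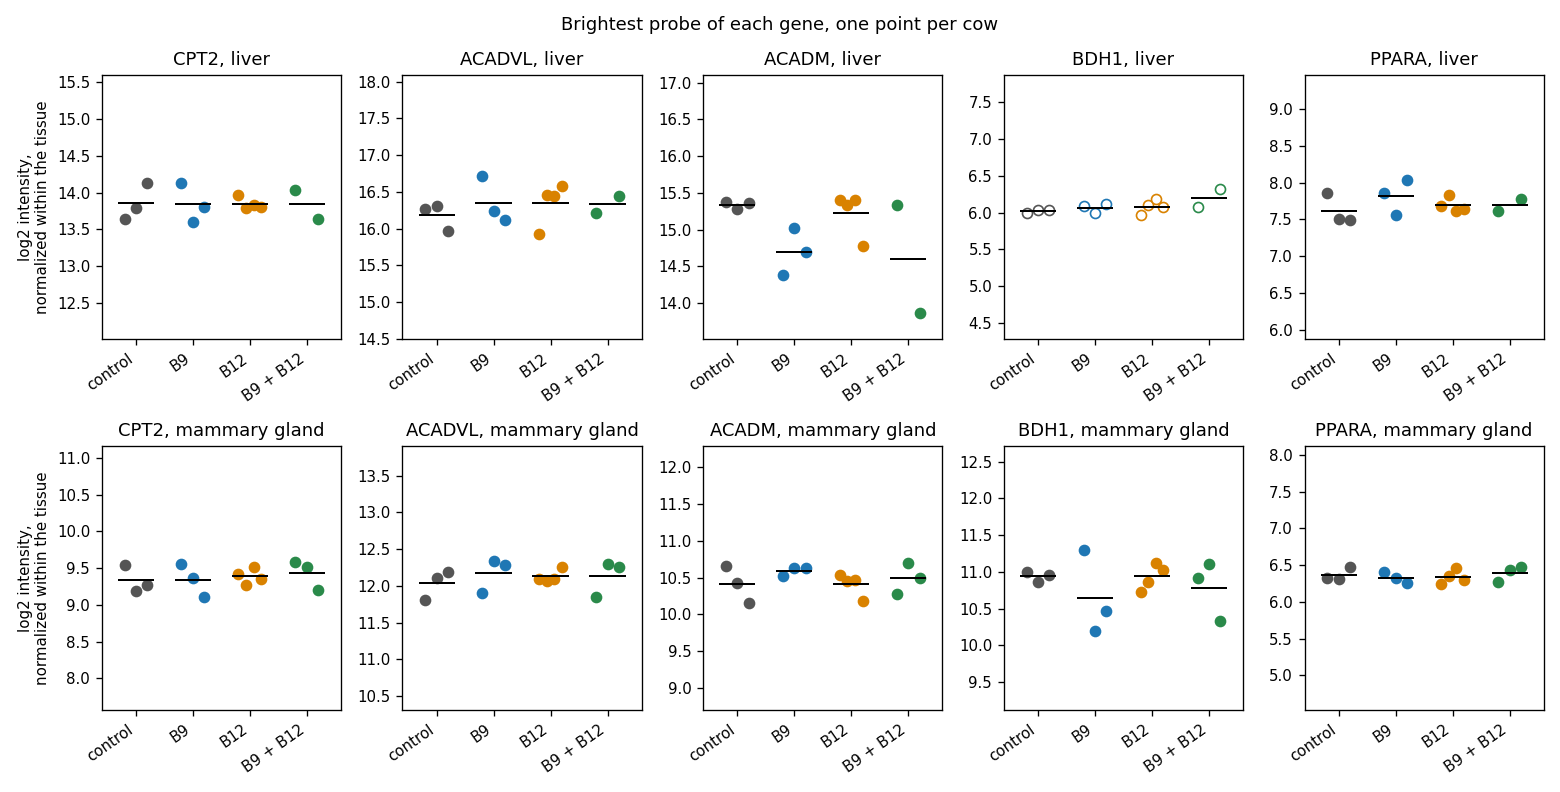
Log2 intensity (vertical axis, each panel spanning the same width) of the brightest probe of CPT2, ACADVL, ACADM, BDH1 and PPARA in liver (top) and mammary gland (bottom) by treatment, 1 point per cow, open where the probe was not well above background, with lines at group means. Only ACADM in the liver has a treated group (B9) that lies apart from the controls, at 14.38 to 15.02 against 15.28 to 15.37, apart from BDH1, whose liver points are all open.

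Groups that did not overlap the controls were also counted for the 11 probes. With B9 in the liver they were 2 of 11, both of ACADM and both lower, where 8.45% of all probes did not overlap. With B12 they were 0 (4.98% of all probes), and with B9 + B12 they were 2, ACADM A_73_P081642 lower and BDH1 higher, where 21.8% did not overlap. BDH1 was not above background there. In the gland, 1 of 11 did not overlap with B9, ACADM A_73_P465518 (higher, by 0.14, against 6.99% of all probes), 0 with B12 (3.88%) and 0 with B9 + B12 (6.89%).

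**Figure D5:**
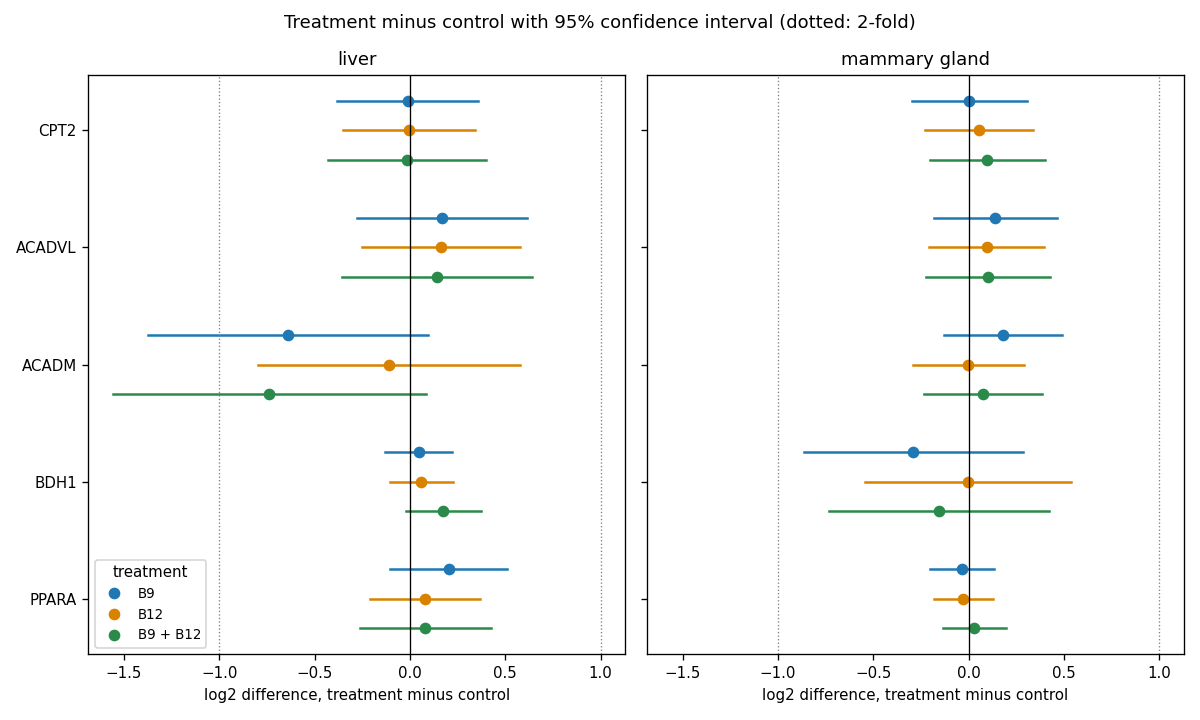
Log2 difference of each treatment from the control (horizontal axis) with its 95% confidence interval for the 5 genes (rows) in liver (left) and mammary gland (right), with dotted lines at a 2-fold change. The intervals of ACADM in the liver with B9 and B9 + B12 reach past the dotted line, to −1.37 and −1.56, and all others stay within it, with BDH1 in the liver at background.

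Of the other pathway genes that were followed by name in the liver, none was called. SLC25A20 differed from the control by 0.36 (−0.03 to 0.74), 0.09 (−0.27 to 0.45) and 0.20 (−0.23 to 0.63) in the B9, B12 and B9 + B12 groups. PPARGC1A differed by −0.65 (−1.48 to 0.18) with B9, by −0.12 with B12 and by −0.67 (−1.60 to 0.26) with B9 + B12, and was not called. Its B9 cows lay below all controls, in a comparison where 8.45% of all probes had groups that did not overlap. No gene of the lists changed by 2-fold or more with a treated group apart from the controls. Over the 59 genes, the median difference in the liver was −0.07, −0.06 and 0.02 for B9, B12 and B9 + B12, against 0.01, 0.00 and 0.02 over all probes. In the mammary gland the medians were 0.02, −0.00 and −0.02.

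The liver profiles of the members were not alike. The 2 brightest ACADVL probes correlated at r = 0.97 over the 12 liver arrays, whereas the 2 CPT2 probes correlated at 0.25, the brightest ACADM and ACADVL probes at −0.49, and ACADM and CPT2 at 0.17. Among 8820 genes whose brightest probe was well above background on all 12 liver arrays, those most like ACADM were ARHGAP12 (r = 0.97), SNX7 (0.95) and RANBP2 (0.95). Those most like ACADVL were PLEKHJ1 (0.93), TMEM140 (0.92) and ANGPTL4 (0.92), and those most like CPT2 were AANAT (0.87), SERPINB4 (0.87) and HMGCLL1 (0.87). PPARA was most like COPS8 (0.89), GATAD1 (0.88) and MTPN (0.86). BDH1, at background, was most like SLA (0.92), UNC119 (0.91) and TMEM237 (0.90). These are the highest of many values over 12 arrays that share slides and normalization, and are given as a description.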

How the data were processed

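RNA of single cows was measured on 1-colour Agilent arrays (12 liver, 13 mammary). Per the file headers, the authors extracted the spots with Agilent Feature Extraction 10.7.3.1, and the deposited intensity of each spot was not normalized between arrays. A second deposited file holds log2 values that the authors had background-corrected and normalized between arrays. It served as an alternative.

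Median intensities were corrected by normexp (offset 50, which narrows the differences of dim probes) and normalized by quantiles, within a tissue or, to compare tissues, over both. Of 45220 spots, 43803 were not controls. Outlier spots were left out and spots of a probe averaged, which gave 43653 probes, of which 23509 were paired with a symbol by unversioned RefSeq accession. The array was annotated on another build than the reference, and no positions or sequences are given.

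Groups came from the labels. Tables were read with data.table (version 1.17.8, R 4.3.3), and limma 3.58.1 was fitted to all arrays of the scope, with Benjamini-Hochberg adjustment over all probes. Confidence intervals and standard errors are from the same fit, and their width depends on the spread of the probe and on the number of arrays. Each gene is described by its brightest probe in the tissue, and the other probes of the members are given beside it or as a range. Pathway genes named for the tissue comparison are the 2 largest called differences in each direction per list, and SLC25A20 and PPARGC1A are given for the treatments. Some genes of the lists are counted but not reported here by name. CPT1B, ACADSB, ACAD11, ETFB and BDH2 were named after their values were seen. The members and lists were chosen with earlier results of these data known. Single genes were tested by exact two-sided permutation. The scripts were tested on simulated data. Figures were drawn with matplotlib 3.10.9.

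Liver and mammary arrays of 1 number come from the same cow. The correlation between the tissues of a cow, of deviations from the group means, ranged from −0.245 to 0.262 (median 0.0374) and was above 0.1 in 4 of 12 cows. The tissue comparison was fitted without the cow, and with it as an alternative. Alternatives were other background corrections and scalings, a filter on dim probes, outlier spots kept, slide or cow as a block, array weights, the 2 groups alone, Cyber-T, the mean of the probes of a gene, the authors' table, and each array left out. Scan day as a block and the first scan day alone were added after the data were seen. The quantitative PCR was not analysed here.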

Additional observations from a re-analysis of the deposited data

Results flagged for a closer look

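In the liver of the B12 group, cow 36 stood apart from the other 3 cows for ACADM. Its log2 intensity was 14.78, against 15.33 to 15.40 in the others, and the gap was 0.888 of the range of the group. It was the only one of the 10 groups of 4 cows tested (5 genes in both tissues) in which 1 cow stood apart in this way. Chance alone gives about 1 in 20 for each group tested, so that 1 of 10 can arise by chance. The 10 groups held the same 4 cows and are not independent, and BDH1 in the liver was at background. The same cow was lowest of its group at both other ACADM probes, with 10.58 and 11.42, and its array had 82.7% of probes well above background. Leaving out this array, the contrast of groups with and without B9 was −0.71.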

How the results depend on the processing

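No member gene was called with a treatment under any alternative, scan day as a block and the first scan day alone included (both added after the data were seen), except ACADM in the B9 + B12 effect in the liver minus that in the gland: leaving out each array in turn gave 0 to 1 member genes called, 1 without the liver array of cow 38. CPT2, ACADVL, ACADM and BDH1 were called between the tissues in all 40 alternatives and PPARA in 4. Paired within cows, with the cow as a replicate block, the liver minus gland differences were 2.84 (CPT2), 2.77 (ACADM), 2.40 (ACADVL) and 0.76 (PPARA), BDH1 having only a bound, and the replicate block changed no call. Arrays scaled to their 75th percentile, without quantiles, gave 18938 probes called between the tissues, of which 19.3% were higher in the liver, and the processed signal scaled in this way gave 19637 (31.6%), against 8157 (47.1%). Of the 662 values of single treatments against control, 603 kept their sign. For ACADM in the liver, the difference ranged from −1.36 to −0.45 with B9 and from −1.47 to −0.00 with B9 + B12, and the B9 contrast from −1.19 (slide as a fixed block) to −0.25 (first scan day); scaling by the 75th percentile gave −0.39, the mean of all probes −0.42 and the authors' table −0.64.

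Over all probes, Cyber-T called 5, 43 and 28 in the liver and 9, 12 and 6 in the gland (B9, B12, B9 + B12), against 0, 1 and 0 in the liver and 0 in each mammary comparison by limma. Without the liver array of cow 38, 72 probes were called with B9 + B12 and 111 for its difference between tissues, and without cow 32, 7 and 4; the first scan day alone gave 3 and 2. In each of these the liver B9 + B12 group is 1 array, and the other groups supply its spread. Without cow 38 there were 7 for B9, 8 for B12 and 12 for the interaction in the liver, and 4 for the interaction without cow 32. The probe called with B12 in the liver was lost (0) with the processed signal, the slide or scan day as a fixed block, the 2 groups alone, the first scan day, and without cows 42, 43, 51, 40 or 52. The other treatment counts that moved by more than 1.5 times were of 1 probe. Between the tissues, 11885 probes were called with an offset of 0, 9931 with 16 and 10037 without background correction, and 4604 of 27841 with the probes of a gene averaged. With 2 to 4 arrays in a group, the liver intervals of ACADM do not exclude a 2-fold fall with B9. The cause of the difference between cows 32 and 38 was not tested.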
